A study of Homo sapiens with 2 samples.

Results

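FAK, PI3K and AKT pathway genes were read in monolayer and spheroid cultures of A549, an established line from a human lung adenocarcinoma, after 12 days. The members were 8 genes given by symbol, namely PTK2, PTK2B, PXN, PIK3CA, PIK3CB, PIK3R1, AKT1 and AKT2, and every probe set of the array annotated with 1 of these genes was read. 7 of the 8 genes were found, with 21 probe sets, among 19775 genes with a probe set of their own. PIK3CA was not analysed here, as it has no annotated probe set among those used. The monolayer was attached and fed with DMEM and 10% FBS. The spheroids floated in serum-free DMEM/F12 to which N2, EGF at 20 ng/ml and bFGF at 10 ng/ml were added, and the effects of attachment, medium, serum and these additions cannot be told apart. A single U133 Plus 2.0 array was hybridised per culture, so no difference has a replicate check or a test. A free-text field of the 2 samples speaks of hepatoma cells under a compound instead, which goes against their titles, their cell line field and the study's methods, and it was not used.

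FAK, the focal adhesion kinase encoded by PTK2, is a tyrosine kinase recruited to integrins where cells attach to matrix, and it works there with the adaptor paxillin (PXN) and with SRC kinases. Phosphorylated FAK and activated growth factor receptors recruit PI3-kinase, a pair of a catalytic subunit such as PIK3CA or PIK3CB and a regulatory subunit such as PIK3R1. PI3-kinase makes the lipid PIP3, which brings AKT kinases to the membrane, and active AKT phosphorylates GSK3, FOXO factors and regulators of mTOR. Activity along this chain is carried by phosphorylation and by lipids. The arrays measured RNA only, and the study followed phosphorylated FAK, AKT and GSK3β on Western blots.

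Promoters are shown for the 3 members whose windows hold letters of a factor tied to this pathway, and for TXNIP, a FOXO target picked after its signals were seen: FOXO factors, which AKT holds back, and Snail (SNAI1), whose stability the study placed under GSK3β. Windows from 250 bases before to 50 after each start site came from RefSeq (GRCh38.p14), and 6 of the 8 members had 13 of them, PTK2 and PTK2B having none used here. Both strands were searched for the FOXO letters GTAAACA, the insulin response letters CAAAACA, the Snail E-box CAGGTG and the GC box GGGCGG. The stretches below have 100 bases each, 5′ to 3′ on the gene's strand, with the match in capitals. They lie at chr3:179148161-179148260 (plus strand) for PIK3CA, chr1:145996651-145996750 (minus strand) for TXNIP, chr14:104793633-104793732 (minus strand) for AKT1 and chr12:120265881-120265980 (minus strand) for PXN.
PIK3CA: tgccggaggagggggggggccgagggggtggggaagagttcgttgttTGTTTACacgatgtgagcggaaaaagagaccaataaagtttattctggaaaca
TXNIP: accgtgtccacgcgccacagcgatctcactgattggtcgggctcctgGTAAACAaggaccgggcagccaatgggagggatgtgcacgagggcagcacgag
AKT1: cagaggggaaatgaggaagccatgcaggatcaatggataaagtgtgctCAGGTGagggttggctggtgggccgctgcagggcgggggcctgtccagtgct
PXN: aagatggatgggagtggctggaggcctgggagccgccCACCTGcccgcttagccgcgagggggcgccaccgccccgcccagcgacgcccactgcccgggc

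The FOXO letters, from base -149 to -143 of PIK3CA (as the reverse complement) and from -124 to -118 of TXNIP, were in 1 of the 13 member windows, in 3 of 27 windows of FOXO target genes and in 3.42% of all 35116 windows. The other target windows with them belong to BCL2L11 and PIK3IP1. The Snail E-box, from -83 to -78 of a start of AKT1 and from -213 to -208 of PXN, was in 2 of the 13 member windows, in 3 of the 27 target windows and in 20.6% of all windows. In PXN the match overlaps a GC box by 1 base. The GC box was in 9 of the 13 member windows and in 45.0% of all windows, and the insulin response letters were in 0 of the 13 and in 4.92%. The G and C content of the member windows ran from 37.7% to 83.3% with a median of 62.3%, against a median of 58.7% over all windows. A match of letters describes the window and does not show that a factor binds there.

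The RNA signals of the FAK, PI3K and AKT genes themselves differed little between the cultures. On each gene's brightest probe set (by the mean of its log2 signals), PXN, PTK2B, PTK2, AKT1 and AKT2 were lower in spheroid culture and PIK3CB and PIK3R1 were higher, and the largest difference of the 7 was 1.26-fold. Signals below the array's median, 108 in monolayer and 119 in spheroid culture, were raised to that median, which is called the floor, and a ratio with 1 culture at the floor is a bound. Of the 21 member probe sets, 16 were above the floor in both cultures, 2 in monolayer culture alone and 3 in neither. Of the 18 above the floor in at least 1 culture, 0 were higher by 3-fold or more and 0 were lower by as much, where 1.98% and 1.68% of all such probe sets with 1 gene were. At 2-fold the counts were 1 higher and 0 lower, against 6.45% and 4.93% of all, which leaves 17 of the 18 within 2-fold, as 88.6% of all were. By any amount 7 of the 18 were higher and 11 were lower, against 51.5% and 48.5% of all. By gene, 2 of 7 were higher and 5 lower, against 51.4% and 48.6% of all genes above the floor, and all 7 lay within 2-fold, as did 87.6% of all. The median log2 ratio (spheroid over monolayer) of the 7 genes was -0.17, beside 0.04 over the 13229 genes above the floor. The size of the log2 ratio regardless of sign had a median of 0.18 in the members and of 0.36 over all genes. With no spread between replicates, the scale used was the scatter between the brightest pair of probe sets within a gene. It was an SD of 0.50 for the difference of the pair's log2 ratios over 5453 genes. Both probe sets were read on the same arrays, so this SD holds no variation between cultures and cannot stand for a spread between replicates. All 7 member ratios were smaller than this SD, as were 62.9% of all genes above the floor. Less RNA per cell and fewer cells with the RNA cannot be told apart in such bulk RNA.

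**Figure D1:**
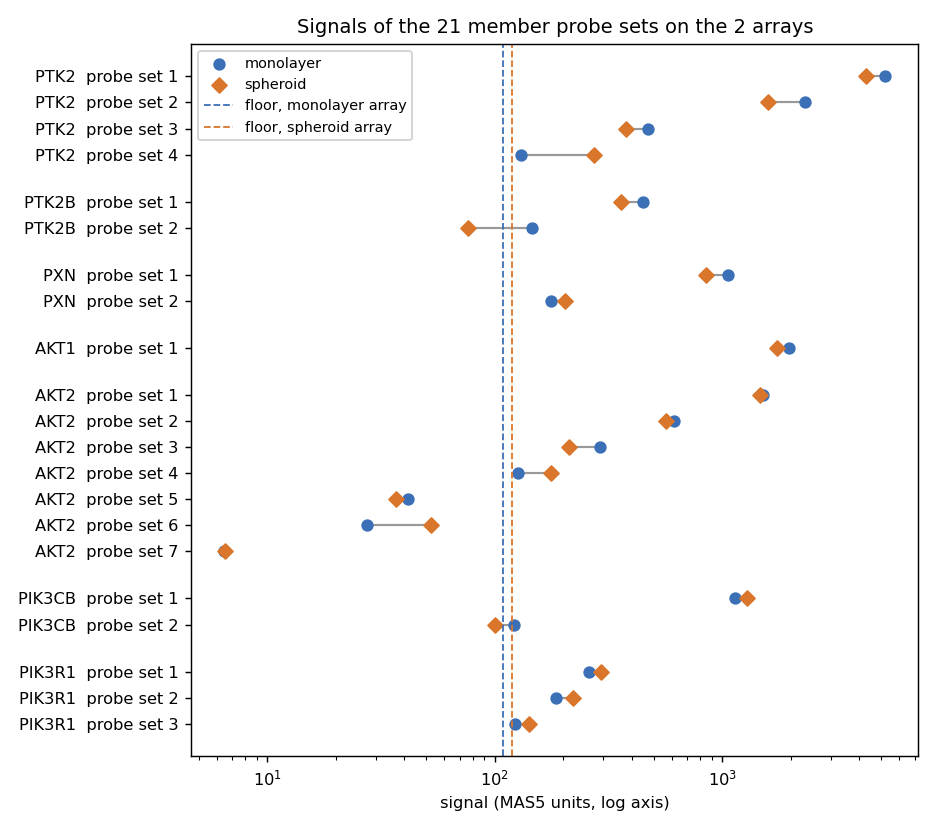
Signal (MAS5 units, log axis) of each of the 21 member probe sets in monolayer (circles) and spheroid culture (diamonds), 1 array each, with probe sets of a gene numbered from the brightest down and the floors of the arrays as dashed lines. The pairs of most probe sets nearly coincide, the widest pair above both floors belongs to the dimmest PTK2 probe set at 129.7 and 274, and 3 AKT2 probe sets lie below both floors.

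PTK2, which encodes FAK, was lower in spheroid culture on its 3 brighter probe sets and higher on the dimmest. The brightest probe set had signals of 5213 (monolayer) and 4289 (spheroid), 1.22-fold lower (log2 ratio -0.28). The second read 2319 and 1583, 1.47-fold lower, the lowest log2 ratio of all member probe sets above the floor in both cultures at -0.55. The third read 473 and 379, 1.25-fold lower. The dimmest read 129.7 and 274, 2.11-fold higher, and it is the only member probe set past 2-fold. PTK2 probe sets thus went both ways, with the one near the floor going against the other 3.

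PTK2B encodes PYK2, the second kinase of the FAK family, which also responds to calcium. The brighter probe set had signals of 447 (monolayer) and 359 (spheroid), 1.24-fold lower (log2 ratio -0.31). The dimmer one read 145 and 76.1, with spheroid culture at the floor, which makes it at least 1.22-fold lower. Both probe sets of PTK2B were lower, as all probe sets above the floor were in 28.7% of genes with 2 or more of them.

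PXN encodes paxillin, the focal adhesion adaptor that binds FAK and is phosphorylated by it. The brighter probe set had signals of 1063 (monolayer) and 846 (spheroid), 1.26-fold lower (log2 ratio -0.33), and the dimmer one read 177 and 204, 1.15-fold higher. The brighter probe set gave the lowest ratio among the 7 genes, and the dimmer one went the other way.

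PIK3CB encodes the catalytic subunit p110β, and PIK3R1 the regulatory subunit p85α with its shorter forms. The brighter PIK3CB probe set had signals of 1142 (monolayer) and 1287 (spheroid), 1.13-fold higher (log2 ratio 0.17), while the dimmer one read 121 and 100.4, with spheroid culture at the floor. The 3 PIK3R1 probe sets read 259.6 and 294, 186 and 219.8, and 122 and 142, with log2 ratios of 0.18, 0.24 and 0.21. PIK3R1 was the only member with several probe sets above the floor that were all higher, as they were in 30.7% of genes with 2 or more of them.

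AKT1 and AKT2 encode the kinases AKT1 and AKT2, which differ mainly in tissue use, AKT2 being the form most tied to insulin-driven glucose uptake. The only AKT1 probe set had signals of 1963 (monolayer) and 1743 (spheroid), 1.13-fold lower (log2 ratio -0.17). The brightest AKT2 probe set read 1508 and 1460.4, with a log2 ratio of -0.05, and the second read 614 and 566. Both genes were thus nearly level on their brightest probe sets. The next AKT2 probe sets read 289 and 212, and 127 and 176, with log2 ratios of -0.45 and 0.47. The other 3 AKT2 probe sets, with signals from 6.45 to 52.6, lay under both floors and have no ratio.

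**Figure D2:**
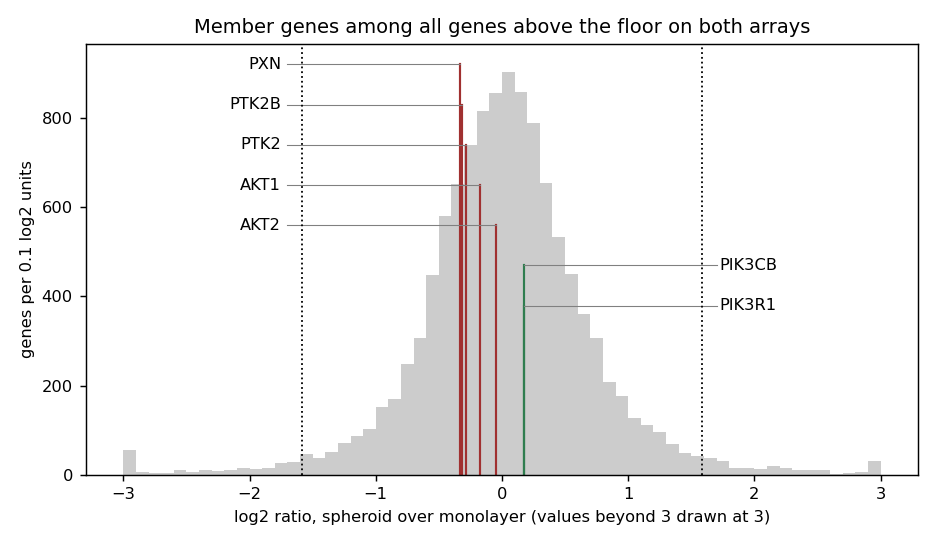
Histogram of log2 ratios (spheroid over monolayer) for the 11528 genes above the floor in both cultures, in bins of 0.1 and with values beyond 3 drawn at 3, with the 7 member genes as vertical lines (red for lower, green for higher in spheroid culture) whose heights have no meaning. Dotted lines stand at a 3-fold difference either way, and the members stand from -0.33 for PXN to 0.18 for PIK3R1, inside the bulk of the genes.

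Ordered by log2 ratio, the genes ran PXN, PTK2B, PTK2, AKT1, AKT2, PIK3CB and PIK3R1, and no neighbours in that order differed by as much as the spread of 0.50 between probe sets. Among the 11528 genes above the floor in both cultures, PXN stood at percentile 25.5 and PIK3R1 at percentile 62.1. PTK2, PTK2B, PXN and AKT1 were lower and PIK3CB and PIK3R1 higher under every setting that gave them a ratio, although PTK2 was at -0.02 and PXN at -0.06 with the geometric mean of their probe sets. AKT2 turned from -0.05 to 0.04 with the geometric mean, to which its 3 probe sets at the floor contribute the ratio of the floors, 0.14. Division of each array by its median, called median division, moved the median of all genes from 0.04 to -0.10. Under it PIK3CB was at 0.03 and PIK3R1 at 0.04, both still above that median, and the other 5 members lay below it.

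**Figure D3:**
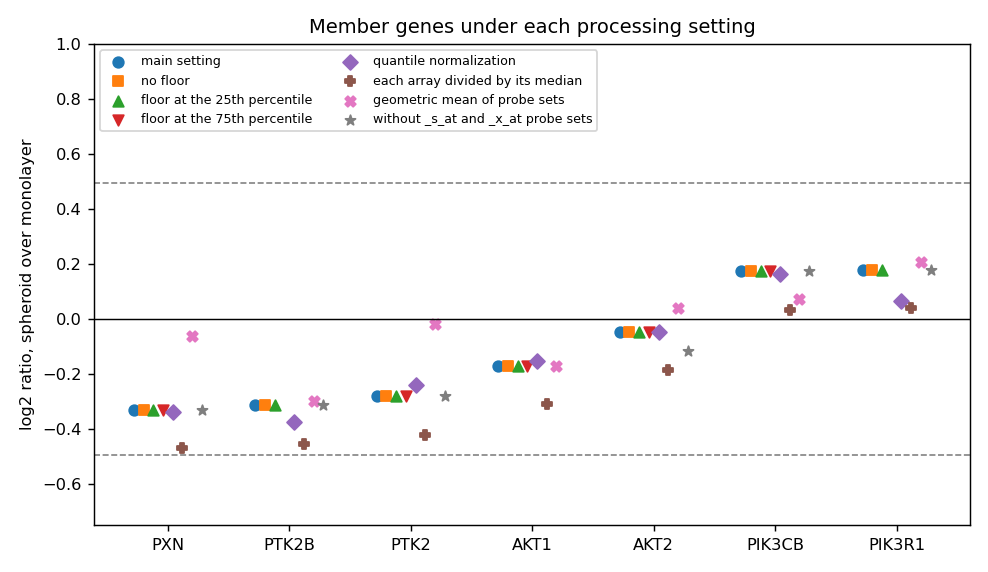
Log2 ratio of spheroid over monolayer signal of each member gene under the main setting and 7 alternative settings, each marker being 1 setting and the dashed lines the SD of 0.50 between the brightest probe sets of a gene on either side of 0. Every marker lies between the dashed lines, and AKT2 with the geometric mean is the only one that crosses 0 against the main setting.

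The members and the genes around them were read from lists of the pathway, each gene on its brightest probe set. Of 169 listed genes, the 8 members included, 160 were measured, 150 of them above the floor in at least 1 culture. DEPTOR, TRIB2, IGFBP1, ERBB3, TXNIP and ITGB4 were at least 3-fold higher in spheroid culture, and NEDD9 was at least 3-fold lower. These 6 and 1 are 4% and 0.667% of the 150, beside 2.34% and 2.11% of all genes above the floor. At 2-fold 12 were higher and 9 lower, or 8% and 6%, beside 6.86% and 5.5% of all genes. The median log2 ratio of the 150 was 0.15, beside 0.04 over all genes, and it was also 0.15 for the 143 without the members. ITGB4, PDPK1, SRCIN1 and CASS4 of these lists also stand in a supplementary table that the study drew from these arrays, so their values are not independent of it.

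FAK and SRC family kinases and regulators of FAK were close to level. Of 14 genes, all above the floor in both cultures, 9 were higher and 5 lower, 0 by 2-fold. The median log2 ratio was 0.06, or -0.080 under median division. The members PTK2B and PTK2 are among the 14 and were the lowest, at -0.31 and -0.28. SRC, which phosphorylates FAK after it has been activated, read 2849.6 and 2852.8 on its brightest probe set. FYN and YES1, of the same family, had -0.16 and -0.17. ARHGAP26, a GTPase-activating protein that binds FAK, and ILK, the integrin-linked pseudokinase, were the highest at 0.51 and 0.41. PTPN12, a phosphatase that removes phosphate from p130Cas and FAK, had 0.05.

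Focal adhesion adaptors leaned lower in spheroid culture. Of 35 measured genes, PXN included, 12 were higher, 21 were lower and 2 lay under both floors. Thus 36.4% of those above the floor were higher, against 51.4% of all genes. The median log2 ratio was -0.20, or -0.34 under median division and -0.10 with the geometric mean of probe sets. NEDD9, a docking protein of the p130Cas family that FAK and SRC phosphorylate, read 4109 in monolayer against 789.6 in spheroid culture, 5.20-fold lower. Its next probe sets read 984 and 304, and 299 and 134, both lower, another read 159 in both cultures, and the last was at the floor. FERMT2, which encodes kindlin-2, an activator of integrins, was 2.55-fold lower with all 3 probe sets lower. TNS3, a tensin, and GIT1, a paxillin-binding scaffold, were 2.10-fold and 2.05-fold lower, TNS3 at -0.47 on the log2 scale with the geometric mean of probe sets. ACTN4 and ZYX, which link adhesions to actin filaments, were 1.91-fold and 1.77-fold lower. ACTN1, the other actinin on the list, read 11070 and 12416, 1.12-fold higher, with 2 of its 3 probe sets above the floor higher. In the same list TNS2, another tensin, was 1.96-fold higher, and LPXN and TGFB1I1, the other members of the paxillin family, had log2 ratios of 0.58 and 0.24. BCAR1, which encodes p130Cas itself, had 0.19.

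PI3-kinase subunits, PIK3CB and PIK3R1 included, were mostly higher. Of 12 measured genes, 8 were higher, 1 was lower and 3 lay under both floors. Of those above the floor 88.9% were higher, against 51.4% of all genes. The median log2 ratio was 0.23, or 0.089 under median division. The list also holds PIK3C2A, PIK3C2B, PIK3C3 and PIK3R4, of other PI3-kinase classes than the pair described above. Its share and median thus describe all these classes together. PIK3C2A and PIK3C2B had log2 ratios of 0.62 and 0.48. Of the remaining genes above the floor, PIK3CB, PIK3R1, PIK3R5 and PIK3R3 had 0.17, 0.18, 0.23 and 1.14, and PIK3CD had -0.25. PIK3R3, which encodes the regulatory subunit p55γ, read 162 and 358, 2.21-fold higher, while its other probe set was at the floor. PIK3C3, the catalytic subunit of the class III enzyme that acts in autophagy and endosome traffic, was 1.63-fold higher, while 1 of its 4 probe sets above the floor, the dimmest, was above it in monolayer culture alone. PIK3R4, the regulatory partner of PIK3C3, had 0.14. PIK3CD, which encodes the p110δ of leukocytes, was 1.19-fold lower and the only subunit that was lower.

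On the list of lipid phosphatases and inhibitors of the pathway, DEPTOR and TRIB2 were higher. DEPTOR, an inhibitory partner of mTOR, read 388 in monolayer against 1548 in spheroid culture, 3.99-fold higher, and its other probe set was at the floor. TRIB2, a pseudokinase of the tribbles family, read 131 and 397, 3.04-fold higher, and its dimmer probe set 72.6 and 206. The place of TRIB2 on this list does not show that it inhibits AKT. Under median division TRIB2 was at 1.46 on the log2 scale, short of 3-fold, as it also was under quantile normalization. DDIT4, a stress-induced inhibitor of mTORC1, was 1.97-fold lower, with signals of 21638 and 10996. PPP2R1A, the scaffold subunit of the phosphatase PP2A, was 1.68-fold lower. Of 19 measured genes of this list 10 were higher, 8 were lower and 1 lay under both floors. The median was 0.10, but -0.036 under median division and -0.065 when the floor was the 75th percentile.

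Among kinases related to AKT and the activators of AKT, RICTOR stood higher and SGK1 lower. RICTOR, the defining subunit of mTORC2, which phosphorylates AKT, read 1815 in monolayer against 3927 in spheroid culture, 2.16-fold higher. Its other 3 probe sets read 1259 and 2393, 482 and 919, and 133.4 and 198, so that all 4 were higher. MAPKAP1, the mTORC2 subunit SIN1, was 1.31-fold lower with all 4 probe sets lower, and MTOR and MLST8 had log2 ratios of 0.43 and -0.03. PDPK1, which encodes PDK1, the kinase of the AKT activation loop, read 1119 and 1622 on its brightest probe set, 1.45-fold higher. Of the other 5 PDPK1 probe sets, 1 was higher, 1 was lower and 3 were at the floor. SGK1, a kinase related to AKT and induced by serum, was 2.71-fold lower, with signals of 1842 and 680.4. The list's 11 genes above the floor, AKT1 and AKT2 included, had a median of -0.03.

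AKT substrates and the mTORC1 branch leaned higher, with the translation repressor EIF4EBP1 as the lowest gene. Of 27 genes 19 were higher and 8 lower, or 70.4% higher against 51.4% of all genes, and the median was 0.35 on the log2 scale, 0.21 under median division and 0.15 when the floor was the 75th percentile. GSK3B, which encodes the kinase GSK3β, had signals of 2543 and 3239 on its brightest probe set, 1.27-fold higher, and GSK3A was 1.30-fold higher. The next GSK3B probe sets read 713 and 731, and 600.4 and 948, so that all 3 above the floor in both cultures were higher, and another was above it in monolayer culture alone. RPTOR, the defining subunit of mTORC1, was 1.99-fold higher, and TSC1 and TSC2, which together restrain mTORC1, were 1.63-fold and 1.61-fold higher. RHEB, the GTPase that activates mTORC1, was 1.99-fold lower, with 1 of its 5 probe sets above the floor higher. EIF4EBP1, which holds back the cap-binding factor until mTORC1 phosphorylates it, read 6740 and 2329 on its only probe set, 2.89-fold lower, while EIF4EBP2 was 1.87-fold higher.

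Genes that FOXO factors are known to switch on had the highest median of these pathway lists, at 0.47. Of 23 measured genes 16 were higher, 3 of them by 3-fold or more, 5 were lower, 0 of them by as much, and 2 lay under both floors. Of those above the floor 76.2% were higher and 14.3% were higher by 3-fold or more, against 51.4% and 2.34% of all genes. IGFBP1, a secreted binder of insulin-like growth factors, read 1199 in monolayer against 10892 in spheroid culture, 9.09-fold higher. ERBB3, a receptor of the EGF receptor family that recruits PI3-kinase, read 423 and 2091, 4.94-fold higher, with all 3 probe sets above the floor higher. TXNIP, an inhibitor of thioredoxin that glucose also induces and whose promoter is printed above, read 591 and 1938, 3.28-fold higher, and its other probe sets read 460.1 and 1286, and 264 and 734. BCL6 and CITED2, both regulators of transcription, were 2.62-fold and 2.38-fold higher. GADD45A and GADD45B, stress genes with other inducers as well, were 2.21-fold and 2.32-fold lower, GADD45B at -0.036 on the log2 scale without _s_at and _x_at probe sets, and IRS2, an insulin receptor substrate, was 1.43-fold lower. FOXO1 and FOXO3 themselves had log2 ratios of 0.37 and 0.42. Median division lowered the median of the list to 0.34, and the geometric mean of probe sets to 0.26.

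**Figure D4:**
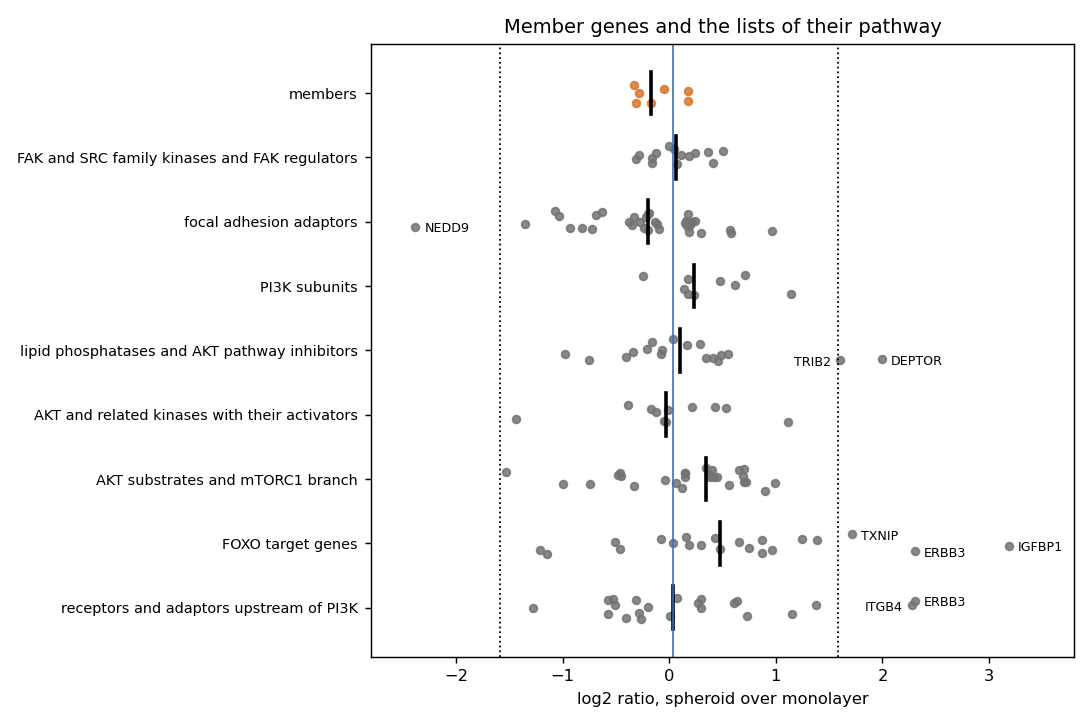
Log2 ratio of spheroid over monolayer signal of each gene above the floor in at least 1 culture, for the members (orange) and each pathway list (grey), with black bars at the medians, a blue line at the median of all genes (0.04) and dotted lines at 3-fold lower and 3-fold higher. Genes past 3-fold are named, genes that belong to several lists are drawn in each, and the 7 members lie within 0.33 of 0 while NEDD9 and IGFBP1 stand farthest out.

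Receptors and adaptors upstream of PI3-kinase went both ways. Of 22 genes, all above the floor, 12 were higher and 10 lower, and the median log2 ratio was 0.04, or -0.10 under median division. ERBB3 and ITGB4, the hemidesmosomal integrin chain, were 4.94-fold and 4.84-fold higher, although ITGB4 was at least 1.29-fold higher on its only probe set that is neither _s_at nor _x_at. Dimmer ITGB4 probe sets read 503 and 1159, and 131 and 346, or 2.31-fold and 2.64-fold higher, short of 3-fold. FGFR1, a receptor of the bFGF that only the spheroid medium contained as a supplement, was 2.43-fold lower on its brightest probe set, with 2 of its 7 probe sets higher. Its log2 ratio of -1.28 was -0.42 with the geometric mean of probe sets and -0.76 without _s_at and _x_at probe sets. FGFR2 was at least 1.49-fold lower, and IGF1R, the receptor of insulin-like growth factors, was 1.49-fold lower with all 4 probe sets above the floor lower. SNAI1, which encodes Snail, read 182 in monolayer and 17.6 in spheroid culture on its only probe set, at least 1.53-fold lower since the second value is at the floor.

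Markers of the cell line were in place, and those of other cell types had these values. The 10 measured A549 and epithelial markers were above the floor in both cultures, with signals that summed to 364971 (monolayer) and 367573 (spheroid), but KRT7 was 3.75-fold lower and KRT19 4.64-fold higher. Of 7 alveolar markers 5 were above the floor in either culture, with sums of 1199 and 1999.7, and NKX2-1 and LAMP3 were at the floor in both. Of 11 hepatoma markers 8 were above the floor and all 8 were higher, against 51.4% of all genes above the floor. By 3-fold or more 3 of the 8 were higher, or 37.5%, against 2.34% of all. The 11 had sums of 3121 and 16251, with APOA2, TTR and TF under both floors. ALB read 23.4 and 4639, APOH 919 and 8136, and SERPINA1 64.6 and 543. FGA and APOA1 of that list were only 1.08-fold and 1.30-fold higher. A dimmer APOA1 probe set was above the floor in monolayer culture alone. IGFBP1 is also a liver gene, and the part of these markers in the differences was not tested. Of 8 fibroblast, 6 leukocyte and 6 endothelial markers 2, 4 and 1 were above the floor, with sums of 1365 and 1044, 1031 and 569, and 407 and 596. The fibroblast markers COL1A1 and DCN read 852 and 618, and 209 and 132. The endothelial marker PECAM1 read 270 and 475. Of the leukocyte markers, ITGAM read 198 and 182, and CD14 read 437 and 111, the second at the floor. PTPRC, VWF, CDH5 and COL1A2 lay under both floors.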

How the data were processed

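RNA of 2 A549 cultures was hybridised to Affymetrix U133 Plus 2.0 arrays, 1 per culture. The deposited values are signal intensities on a linear scale, made with MAS5 and GCOS according to the processing notes of the submitters, with versions not given in the sources used here. The authors had scaled them already, since both arrays had a mean of 499.9 after 2% of values was trimmed at each end. The study's methods name GeneSpring GX for later steps. Of 54675 probe sets, 41097 had 1 gene, 1801 several and 11777 none in the platform annotation, and symbols were updated by Entrez identifier for 41043. Probe sets with several genes were not used, and none of them listed a member. Values under each array's median without the 62 control probe sets were raised to it. Of a gene's probe sets, the one with the largest average log2 signal stood for the gene. A probe set or gene with 1 culture at the floor counts as higher in the other. No test was run, and genes were counted at 3-fold.

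The genes named are all members, of each pathway list the genes past 3-fold and the 2 highest and 2 lowest, and GSK3A, GSK3B and SNAI1. Some listed genes are not reported here. ACTN1, ACTN4, BCAR1, BCL6, CITED2, FOXO1, FOXO3, FYN, GIT1, IGF1R, IRS2, MLST8, MTOR, PIK3C2A, PIK3C2B, PIK3R5, PTPN12, SRC, TGFB1I1, TNS3, TSC1, TSC2, YES1 and ZYX were added after their values were seen, as were the marker genes named and the genes of the closing observations. Members and lists were chosen with earlier results of these data known. Alternatives were no floor, floors at the 25th and 75th percentile, quantile normalization, division by the median, the geometric mean over a gene's probe sets, omission of _s_at and _x_at probe sets, and a limit of 2-fold or 5-fold in place of 3-fold. The steps were tested on simulated arrays with large changes planted in bright genes only. That test does not cover small ratios or signals near the floor. Python 3.11.15, numpy 2.4.6, pandas 2.3.3 and matplotlib 3.10.9 were used. Precision is limited by the number of arrays.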

Additional observations from a re-analysis of the deposited data

How the results depend on the processing

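With 1 array per culture no setting has a test, and a log2 ratio was taken to have moved when it changed by at least 0.50, the SD between probe sets, or for a median by that SD divided by the square root of the number of genes. The ratios and the median of the members moved by less under the alternatives run. A change of the floor alone left the member ratios that were given as they were. AKT1 has only an _s_at probe set, and PTK2B and PIK3R1 were at the floor at the 75th percentile, so these gave no value there. The 0 member probe sets at least 3-fold higher became 1 at 2-fold. The 6 higher and 1 lower pathway genes became 12 and 9 at 2-fold and 1 and 1 at 5-fold, and 1 and 0 with the geometric mean of probe sets, under which IGFBP1 (1.66) alone stayed past 3-fold, with DEPTOR at 1.07, ERBB3 at 1.04, ITGB4 at 1.08 NEDD9 at -1.02, TNS3 at -0.47, PIK3R3 at 0.64 and FGFR1 at -0.42. With no floor 7 were higher and 2 lower, and under division by the median 4 were higher, with TRIB2 (1.46) and TXNIP (1.57) short of 3-fold, and 2 lower. Without _s_at and _x_at probe sets 4 were higher, and with quantile normalization or the floor at the 75th percentile 5 were. Division by the median gave list medians of -0.080 for FAK and SRC family kinases, -0.34 for adaptors, -0.036 for phosphatases and inhibitors, 0.21 for AKT substrates, 0.34 for FOXO targets and -0.10 for receptors, with all genes at -0.10. The geometric mean gave -0.10 for adaptors, 0.20 for AKT substrates and 0.26 for FOXO targets. The floor at the 75th percentile gave -0.065 for phosphatases and inhibitors and 0.15 for AKT substrates, left TRIB2 and PIK3R3 at the floor, and gave -0.40 for GADD45B. No paired analysis was possible because each culture has 1 array.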

Other observations

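The 5 genes of the phosphatase PP2A that were on the list of inhibitors, a phosphatase that removes phosphate from AKT, were lower on their brightest probe sets, where 48.6% of all genes above the floor were lower. The scaffold subunit PPP2R1A had a log2 ratio of -0.75, and PPP2R2A, PPP2R1B, PPP2CA and PPP2CB had log2 ratios of -0.34, -0.21, -0.16 and -0.065. PPP2R2A and PPP2R1B each had 1 further probe set that was higher. These genes were picked out after their values were seen, and other subunits were not read. Of the inositol phosphatases on the same list, INPP5D, INPPL1, INPP4A and INPP5E had log2 ratios of 0.49, 0.41, 0.17 and -0.080. The INPP5D value is a bound, since its monolayer signal of 65.8 was at the floor. Of the 4 INPP4A probe sets above the floor in at least 1 culture, 1 was higher and 3 were lower. INPP4B had 0.29 on its brightest probe set, while another read 547 in monolayer and 244 in spheroid culture, 2.24-fold lower.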
